A study of Mus musculus with 30 samples.

Results

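Methylmercury (MeHg) bound to cysteine resembles the amino acid methionine and is carried into the brain by the large neutral amino acid transporters, so the transcripts of these carriers were followed in the hippocampus of MeHg-fed mice. The genes were chosen by symbol as Slc7a5, Slc7a8, Slc3a2, Slc43a1 and Slc43a2, which makes 5 of the 21412 genes in the deposited table, and each symbol matched 1 Ensembl gene. All animals were male BALB/c mice, and each library held RNA from the hippocampus of 1 mouse, with 5 mice in each of 6 groups. The Ctr, LD and HD mice were obtained at 2 to 3 weeks of age and were given AIN-93G feed for 11 weeks. Ctr feed had cysteine and no MeHg, LD feed 0.28 mg and HD feed 5 mg MeHg per kg, and the MeHg was given as an equimolar MeHg-cysteine mixture. The Se_Ctr, Se_LD and Se_HD groups were given selenium as well, which the study names as selenium-methionine, in a full factorial with MeHg. Their selenium dose, MeHg dose in mg per kg feed and feeding time are not given in the sources used here, so the LD and HD names are used for both diets as the labels have them. No p-value below speaks for more than the spread between these mice.

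Large neutral amino acids such as leucine, phenylalanine and methionine cross cell membranes through exchangers made of a light chain and a heavy chain. Slc7a5 (LAT1) and Slc7a8 (LAT2) are light chains that carry the amino acid, and Slc3a2 (4F2hc, CD98) is the heavy chain that brings them to the cell surface. LAT1 is abundant in the endothelium of the blood-brain barrier, where it exchanges an amino acid on one side for another on the opposite side. Slc43a1 (LAT3) and Slc43a2 (LAT4) belong to a separate family that needs no heavy chain and lets amino acids pass down their gradient. The question put to the data was whether the transcripts of this uptake route differed with MeHg dose or selenium.

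The positions below are in the NCBIM37 build used by the authors. Slc7a5 (ENSMUSG00000040010) lies at chr8:124405052-124431594 on the minus strand, Slc7a8 (ENSMUSG00000022180) at chr14:55341053-55400723 on the minus strand and Slc3a2 (ENSMUSG00000010095) at chr19:8781372-8797859 on the minus strand. Slc43a1 (ENSMUSG00000027075) lies at chr2:84679007-84703751 and Slc43a2 (ENSMUSG00000038178) at chr11:75345196-75391077, both on the plus strand. All 5 are annotated as protein coding, and their values are sums of reads over the exons of the gene, untranslated regions included. The annotation places Gm20388 on the opposite strand across Slc7a5, and the strand setting of the counting is not given in the sources used here, so reads of the pair cannot be told apart if strand was ignored.

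Promoter sequence is shown for Slc43a2 and Slc3a2, the members with an unadjusted p under 0.05 in a comparison of groups. Both stretches are the 250 bases before a start site in RefSeq's GRCm38.p6 annotation, written 5′ to 3′ on the strand of the gene, and the table used held an entry for 4 of the 5 members. Capitals mark the GC box (GGGCGG) and the CCAAT box (CCAAT), searched on both strands.
Slc43a2, chr11:75531444-75531693, plus strand: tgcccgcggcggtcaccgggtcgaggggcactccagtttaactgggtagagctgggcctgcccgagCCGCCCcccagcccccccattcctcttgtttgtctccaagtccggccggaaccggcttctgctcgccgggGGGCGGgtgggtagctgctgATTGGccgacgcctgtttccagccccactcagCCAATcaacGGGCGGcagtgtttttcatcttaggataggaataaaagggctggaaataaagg
Slc3a2, chr19:8713898-8714147, minus strand: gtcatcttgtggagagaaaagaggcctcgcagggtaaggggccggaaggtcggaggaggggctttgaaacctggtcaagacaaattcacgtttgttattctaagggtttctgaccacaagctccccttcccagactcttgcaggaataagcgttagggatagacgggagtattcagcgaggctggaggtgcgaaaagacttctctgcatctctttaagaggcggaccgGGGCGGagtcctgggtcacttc

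The Slc43a2 stretch held 3 GC boxes, beginning 184, 114 and 53 bases before the start site, and 2 CCAAT boxes, at 94 and 62 bases. The table lists a second start site for Slc43a2, not printed here, whose stretch held 1 GC box at 24 bases and CCAAT boxes at 71 and 40 bases. The Slc3a2 stretch held 1 GC box at 22 bases and no CCAAT box. Among all 32851 such stretches in the table, 32.7% held a GC box and 33.8% a CCAAT box. The letters TGATGNAAN, a form of the amino acid response element, were in 3.44% of all stretches and in neither of these, and the letters TGACNNNGC, a form of the antioxidant response element, were in 10.2% and in neither of these. None of these motifs overlapped another in the printed stretches.

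The heavy chain was the most abundant of the 5 transcripts and Slc43a1 was barely detected. Levels are compared between genes as normalized counts per kilobase of exon, where a normalized count is the number of reads divided by the size factor of the library. Slc3a2 had 219 ± 24.8 per kilobase (SD, n = 30 libraries), which was above 90.6% of all genes with a symbol. Slc7a8 followed with 136 ± 15.3, Slc7a5 with 85.9 ± 18.2 and Slc43a2 with 61.3 ± 6.33, while Slc43a1 had 0.378 ± 0.346 and was above 4.25% of genes. The order held in nearly every mouse: Slc3a2 exceeded Slc7a8 in 30 of 30 libraries, Slc7a8 exceeded Slc7a5 in 29 and Slc7a5 exceeded Slc43a2 in 28. The last of these steps depends on the gene length, since with the longest transcript in place of all exons Slc43a2 had 89.3 ± 9.23 per kilobase and exceeded Slc7a5 (85.9) in 21 of 30 libraries.

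**Figure D1:**
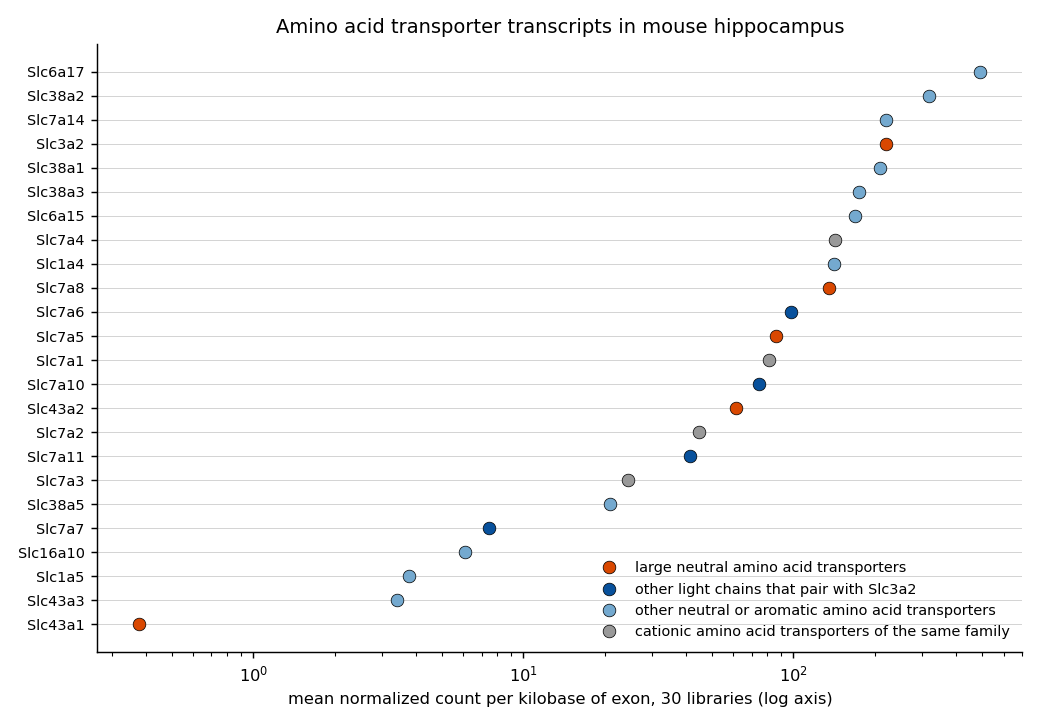
Mean level of each amino acid transporter transcript over 30 libraries, as normalized counts per kilobase of exon on a log axis, with 1 point per gene coloured by its gene list. Slc3a2 (219), Slc7a8 (136), Slc7a5 (85.9) and Slc43a2 (61.3) are far above Slc43a1 (0.378), which lies below every other transporter drawn.

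Per kilobase, the light chains were less abundant than the heavy chain in every group. The ratio of Slc7a5 to Slc3a2 was 0.403 ± 0.0459 in Ctr, 0.375 ± 0.0476 in LD and 0.410 ± 0.0545 in HD mice (SD, n = 5), and 0.383 ± 0.0682, 0.387 ± 0.0923 and 0.381 ± 0.0150 in Se_Ctr, Se_LD and Se_HD mice. The group means of this ratio thus differed by less than the SD of most groups. The ratio of Slc7a8 to Slc3a2 was 0.626 ± 0.105 over the 30 libraries, with its widest spread in HD mice (0.386 to 0.887).

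Few of the 5 genes differed between groups at any threshold. Each was fitted with every other gene by limma's moderated test on log2 of the normalized count plus 1, a gene is called here at an unadjusted p under 0.05, the threshold of the study, and it passes at a Benjamini-Hochberg adjusted p under 0.05. Over 75 combinations of member and comparison, 4 had an unadjusted p under 0.05 and 0 passed, and the lowest adjusted p was 0.298. Within the diet without added selenium, 0 of the 5 were called for LD against Ctr, HD against Ctr and HD against LD, beside 3.01%, 8.34% and 6.96% of all genes tested. Within the selenium diet, 0 were called for Se_LD against Se_Ctr (3.31% of all genes) and Se_HD against Se_Ctr (4.19%), and 1, Slc43a2, for Se_HD against Se_LD (4.94%).

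Selenium itself gave 0 calls among the 5 genes. This held for Se_Ctr against Ctr (4.00% of all genes called), Se_LD against LD (2.86%), Se_HD against HD (8.38%) and selenium pooled over the MeHg doses (6.62%). The effect of MeHg was also compared between the diets, with 0 members called for the HD effect (4.77% of all genes) and 0 for the LD effect (3.75%). When the diets were pooled, 0 were called for LD (2.69%) and 2 for HD (9.09%), Slc43a2 and Slc3a2. The F test for any difference among the 6 groups called 1 member, Slc43a2, and 6.91% of all genes. By exact permutation (two-sided, 5 mice in each group), 3 of 45 tests had p under 0.05, all for Slc43a2, and the lowest p adjusted over the 45 was 0.357. With edgeR or DESeq2 on the recovered reads, 0 of the 5 genes passed as well.

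**Figure D2:**
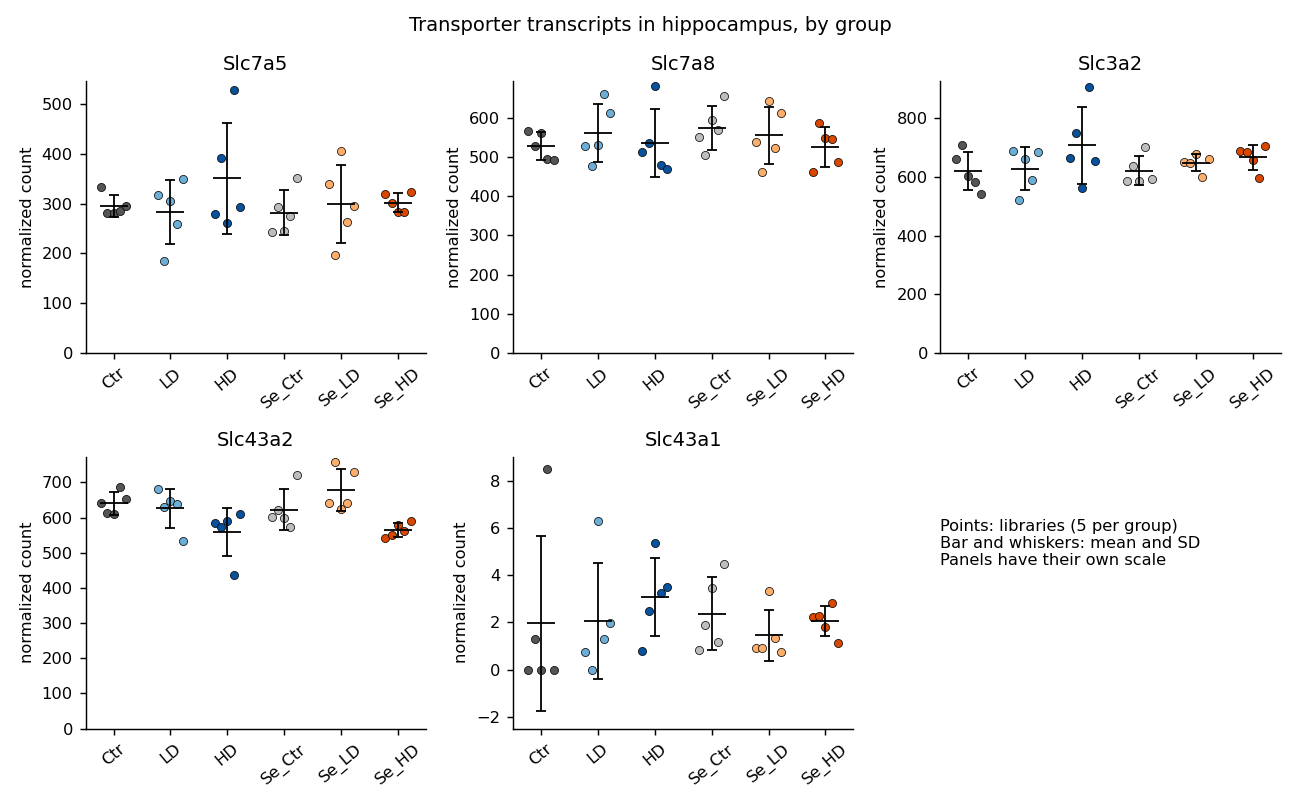
Normalized counts of the 5 transcripts in each library by group, with 1 point per mouse, a bar at the mean and whiskers of 1 SD (5 mice per group), and a scale for each panel. All Se_HD points of Slc43a2 lie below all Se_LD points, 1 HD mouse stands above the rest for Slc7a5 and Slc3a2 (528.9 and 908.4), and Slc43a1 lies between 0 and 8.50.

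Slc7a5, the LAT1 light chain, showed no called difference between groups, and single mice with high or low values were found in several of them. Its normalized counts were 281, 281, 284, 295 and 333 in Ctr mice, 185, 259, 304, 316 and 350 in LD mice and 261, 280, 293, 392 and 529 in HD mice. Of the 5 HD mice, 2 were below every Ctr mouse and 1 was within the Ctr range, while libraries 9 (392) and 21 (529) stood above every Ctr mouse. With selenium the counts were 242, 246, 275, 293 and 352 in Se_Ctr, 196, 262, 294, 339 and 406 in Se_LD and 282, 282, 301, 320 and 323 in Se_HD mice. Each selenium group overlapped the others, and the LD, Se_Ctr and Se_LD groups also held mice above every Ctr mouse. The coefficient of variation was 7.52% in Ctr, 22.5% in LD and 31.8% in HD mice, and 15.9% in Se_Ctr, 26.4% in Se_LD and 6.51% in Se_HD mice, and these spreads were not compared by a test. The fitted difference of HD against Ctr was 14.9%, with a 95% interval from -10.9 to 48.3% (limma, log2 fold change 0.20, SE 0.18, adjusted p = 0.832), so a change of either sign within that interval could not be told from 0. Without library 21 the log2 fold change was 0.04. In the selenium diet, Se_HD against Se_Ctr differed by 7.92% (interval -12.0 to 32.3%, log2 fold change 0.11, which was 0.06 without library 4 or 16 and 0.19 without library 28), and LD against Ctr by -6.03% (interval -27.2 to 21.2%).

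Slc3a2, the heavy chain, had the same mice at the top. Its normalized counts were 542, 585, 604, 662 and 708 in Ctr mice, 521, 588, 660, 685 and 689 in LD mice and 564, 653, 665, 751 and 908 in HD mice. Libraries 9 and 21 were again above every Ctr mouse and the other HD mice lay within the Ctr range. In the selenium diet the counts were 586, 588, 593, 639 and 702 in Se_Ctr, 601, 649, 652, 663 and 680 in Se_LD and 597, 657, 685, 690 and 707 in Se_HD mice, and 1 Se_HD mouse was above every Se_Ctr mouse. Pooled over the diets, Slc3a2 was 10.3% higher in the high dose groups than in their controls (95% interval 0.0460 to 21.5%, log2 fold change 0.14, SE 0.07, limma unadjusted p = 0.0490, adjusted p = 0.545). Within a diet the differences were 13.2% for HD against Ctr (interval -4.79 to 34.6%) and 7.43% for Se_HD against Se_Ctr (log2 interval -0.04 to 0.24). The pooled p was above 0.05 when any 1 of 13 of the 20 libraries was left out, with log2 fold changes of 0.09 to 0.15. These were libraries 13, 19 and 25 (Ctr), 9 and 21 (HD), 4, 10, 16 and 28 (Se_Ctr) and 6, 12, 18 and 30 (Se_HD), and without library 21 the value was 0.09 (limma unadjusted p = 0.145). The pooled p was also above 0.05 with quantile normalization, without the trend in limma and with sets of library numbers as a block (limma unadjusted p = 0.0650, 0.0666 and 0.0621). Within the diets Slc3a2 was called without library 15 for HD against Ctr (0.26, limma unadjusted p = 0.0415), where it was 0.08 without library 21 (limma unadjusted p = 0.458), and without library 22 or 24 for Se_HD against Se_Ctr (0.15 and 0.14).

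Slc7a8, the LAT2 light chain, showed no called difference. Its normalized counts were 492, 494, 528, 560 and 566 in Ctr mice, 478, 527, 529, 611 and 659 in LD mice and 468, 478, 514, 535 and 682 in HD mice. Here library 15 and not library 21 was the highest of the HD mice. Counts in the selenium groups were 504, 550, 570, 594 and 656 in Se_Ctr, 461, 522, 538, 612 and 643 in Se_LD and 460, 486, 546, 547 and 588 in Se_HD mice. All groups overlapped. The difference of HD against Ctr was 0.600% (95% interval -14.3 to 18.1%) and that of Se_HD against Se_Ctr -8.57% (interval -20.0 to 4.45%), with limma adjusted p of 0.993 and 1.00. The sign of the first of these is not fixed by the data, since it turned negative when 1 of libraries 15, 19 or 25 was left out, with log2 fold changes of -0.08, -0.01 and -0.02.

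Slc43a2, the LAT4 transporter, had the lowest p of the 5 genes and was lower in the high dose groups of both diets. Its normalized counts were 609, 612, 642, 654 and 688 in Ctr mice, 533, 631, 637, 649 and 681 in LD mice and 437, 573, 583, 592 and 610 in HD mice. Of the 5 HD mice, 4 were below every Ctr mouse, and library 27 (609.8) was within 1 count of the lowest Ctr mouse (609.1). In the selenium diet the counts were 572, 599, 601, 623 and 720 in Se_Ctr, 626, 641, 641, 728 and 757 in Se_LD and 543, 552, 562, 580 and 591 in Se_HD mice. The Se_HD mice lay below all Se_LD mice with no overlap, and 3 of them lay below every Se_Ctr mouse.

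The tests of Slc43a2 followed these values, and none passed after adjustment over all genes. The difference of Se_HD against Se_LD was -16.4% (95% interval -24.7 to -7.29%, log2 fold change -0.26, SE 0.07, limma unadjusted p = 0.00172, adjusted p = 0.735). The exact permutation p for these groups was 0.00794, the smallest that 5 mice against 5 can give. HD against Ctr differed by -13.3% (interval -24.9 to 0.164%, limma unadjusted p = 0.0524, adjusted p = 0.608, exact permutation p = 0.0159), and Se_HD against Se_Ctr by -8.95% (interval -17.9 to 0.993%, limma unadjusted p = 0.0738, adjusted p = 1.00, exact permutation p = 0.0317). Pooled over the diets, the high dose groups were -11.1% from their controls (interval -18.3 to -3.32%, log2 fold change -0.17, SE 0.06, limma unadjusted p = 0.00752, adjusted p = 0.298), and 4 of the 10 high dose mice were below all 10 controls. The F test over the 6 groups had an unadjusted p of 0.0158 (adjusted p = 0.491).

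No difference between the diets in the high dose effect on Slc43a2 was detected, within wide limits. The log2 difference between the diets was 0.07 (SE 0.12, 95% interval -0.17 to 0.31, limma unadjusted p = 0.562). In low dose mice the intervals included 0, with LD against Ctr at -2.54% (interval -15.6 to 12.6%) and Se_LD against Se_Ctr at 8.94% (interval -1.79 to 20.8%). Library 21 was the lowest of all 30 libraries (437), and without it HD against Ctr was -0.12 on the log2 scale and the pooled value -0.13 (limma unadjusted p = 0.199 and 0.0235). HD against Ctr was called without library 15 (-0.23, limma unadjusted p = 0.0433) or library 27 (-0.24, limma unadjusted p = 0.0373), and Se_HD against Se_Ctr without library 22 (-0.16, limma unadjusted p = 0.0420). Without library 28 the latter was -0.08 (limma unadjusted p = 0.236). With all 30 libraries in 1 fit, as in the pooled comparison, HD against Ctr was called too (-0.21, limma unadjusted p = 0.0208). Leaving out any 1 library kept the pooled p between 0.00463 and 0.0235.

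**Figure D3:**
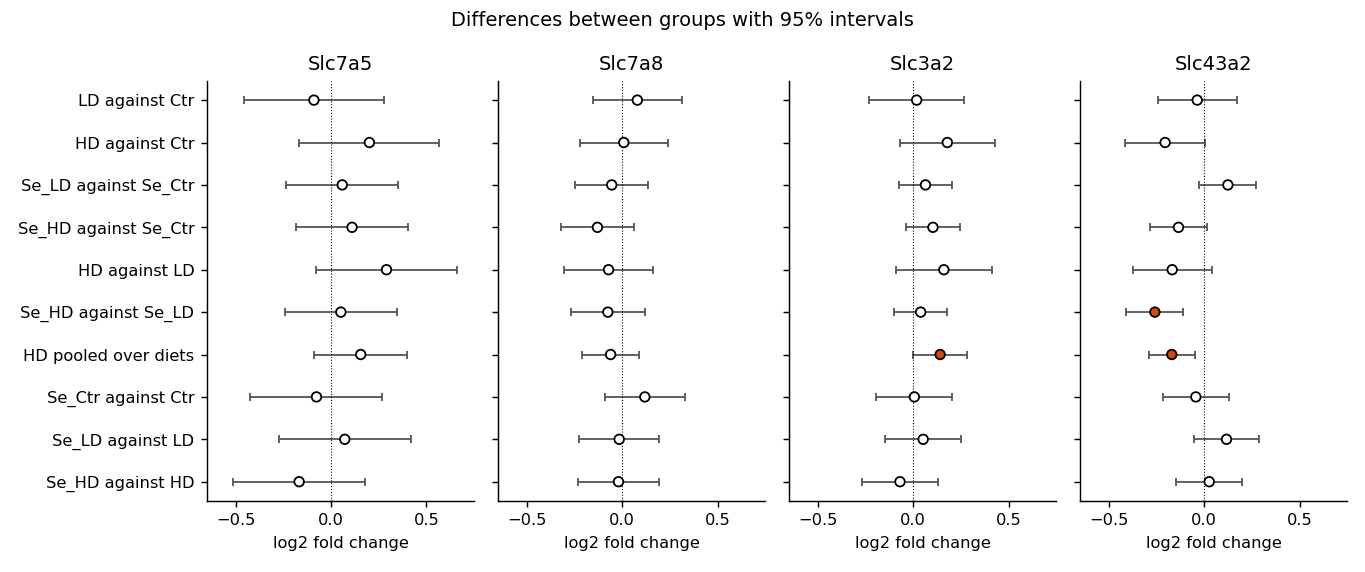
Log2 fold changes of 4 transcripts in 10 comparisons (limma, points) with 95% intervals (bars), where filled points have an unadjusted p under 0.05. The filled points are Slc43a2 for Se_HD against Se_LD (-0.26), Slc43a2 for the high dose pooled over the diets (-0.17) and Slc3a2 for the same pooled comparison (0.14).

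Slc43a1, the LAT3 transporter, was at the limit of detection. A total of 68 reads fell on it over the 30 libraries, with 0 to 9 reads per library and 0 reads in 4 libraries, 3 of them Ctr and 1 LD. The reads summed to 10 in Ctr, 10 in LD, 16 in HD, 13 in Se_Ctr, 8 in Se_LD and 11 in Se_HD mice. Of the 10 Ctr reads, 9 came from library 19, and without that library the limma p for HD against Ctr was 0.00819 where it was 0.112 with it. It was also under 0.05 with a pseudocount of 0.1 (limma unadjusted p = 0.0443), so the call depends on 1 library and on the processing. Most libraries held 3 reads or fewer at a depth of 5768208 to 11510521 reads per library, so fitted fold changes of this gene are not read here.

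Slc7a5 and Slc3a2, the LAT1 chain and its partner, varied together from mouse to mouse. Over the 30 libraries Pearson's r of their log2 values was 0.71 (permutation p = 7e-05, adjusted over 10 member pairs 0.000700) and Spearman's rho was 0.57 (permutation p = 0.00155, adjusted 0.0155). With the group means removed r was 0.69, and without libraries 8 and 21, the farthest from the median of Slc3a2, it was 0.45. Slc3a2 and Slc43a2 varied in opposite directions, with r of -0.53 (permutation p = 0.00369, adjusted 0.0184) and rho of -0.43 (permutation p = 0.0188, adjusted 0.0942), and r of -0.28 without the same libraries, so this relation rests largely on them. Slc7a5 and Slc43a2 had r of -0.47 (permutation p = 0.0112, adjusted 0.0373) but rho of -0.11 (permutation p = 0.555), and r of -0.22 without libraries 8 and 21. Slc7a8 followed neither partner, with r of -0.19 to Slc3a2 and 0.11 to Slc7a5 (permutation p = 0.308 and 0.569).

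**Figure D4:**
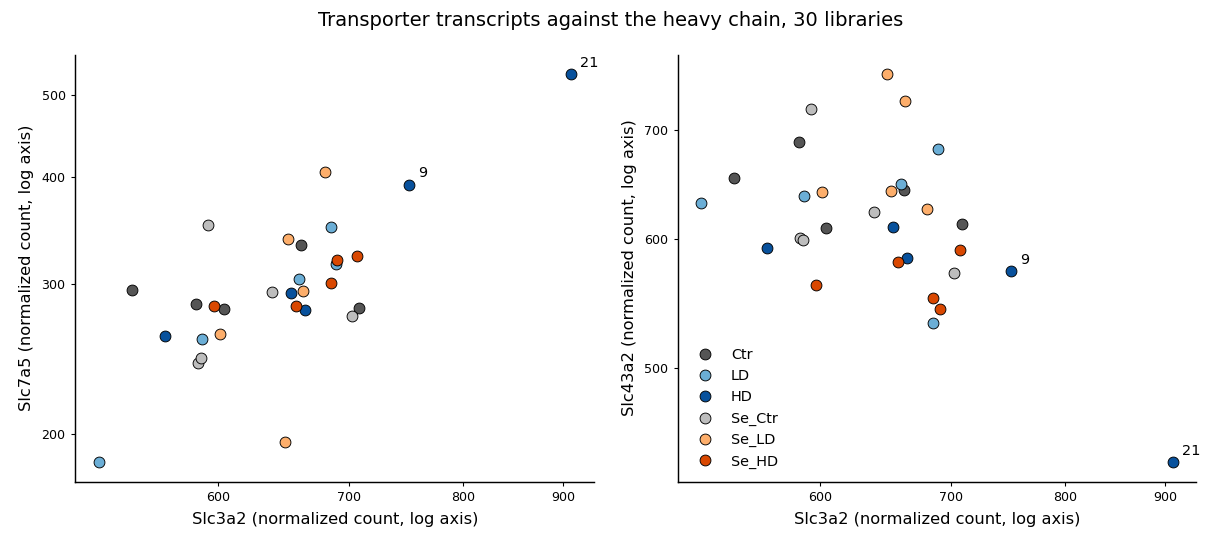
Normalized counts of Slc7a5 (left) and Slc43a2 (right) against Slc3a2 in 30 libraries on log axes, with 1 point per mouse coloured by group and HD libraries 9 and 21 numbered. Slc7a5 is higher where Slc3a2 is higher (r = 0.71) and Slc43a2 is lower where Slc3a2 is higher (r = -0.53), and library 21 lies at the end of both patterns.

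The genes with the most similar pattern to each member were taken by Pearson's r over the 30 libraries among the 14296 genes whose mean normalized count was 10 or more. For Slc3a2 they were Lgmn (0.84), Cd151 (0.82), Arpc1b (0.80), Mlc1 (0.79) and Ctsb (0.78), of which Lgmn and Ctsb encode lysosomal proteases and Mlc1 an astrocyte membrane protein. For Slc7a5 they were St6galnac4 (0.76), Lgmn (0.74), Ostf1 (0.73), Apcdd1 (0.72) and Slc3a2 itself (0.71). For Slc43a2 they were Pogk (0.82), Gjc3 (0.78), Sox2ot (0.77), Kif5a (0.77) and Scn4b (0.77), where Gjc3 encodes a connexin of oligodendrocytes. For Slc7a8 they were Rnft2 (0.77), Coro2b (0.73), Smap2 (0.73), Ldoc1l (0.72) and Tmem184b (0.70). These are the highest of many values from the same libraries, and no test is given. Slc43a1 was too sparse for such a list.

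Some glial genes were highest in the same HD libraries as Slc7a5 and Slc3a2. Marker lists were summed per library as normalized counts, and in bulk tissue a change in the number of cells and in RNA per cell cannot be told apart. The hippocampal neuron markers (8 of 8 genes) were detected in every group, with summed levels of 6945 to 12992. The 12 microglia markers summed to 3094 to 3403 in Ctr, 4038 to 10181 in HD and 3233 to 3854 in Se_HD mice. In HD against Ctr all 12 of the 12 had a higher level at unadjusted p under 0.05, beside 8.34% of all genes called. Among HD mice, libraries 21 and 9 had the highest C1qa, a complement gene of microglia (1227 and 877 normalized counts against 343 to 470), and the highest Gfap, an astrocyte filament gene (32820 and 12446 against 4080 to 7281). These are the mice with the highest Slc7a5 and Slc3a2, and library 21 is the lowest for Slc43a2. No marker of any list was at 0 in a whole group. Gfap is not among the 8 astrocyte markers. Of these, 3 were called higher for HD against Ctr and 4 for the pooled high dose, beside 8.34% and 9.09% of all genes. The astrocyte sum had r of -0.003 to Slc3a2, 0.17 to Slc7a5 and -0.18 to Slc43a2 (permutation p = 0.988, 0.360 and 0.333). Without libraries 9 and 21 these r were -0.47, -0.17 and 0.10. The part of these cells in the transporter values was not tested. Slc3a2, Slc7a5 and Slc43a2 had r of 0.60, 0.59 and -0.59 to the summed microglia markers over the 30 libraries (permutation p = 0.00101, 0.00180 and 0.00167, adjusted over 55 relations 0.0185, 0.0190 and 0.0190), with rho of 0.37, 0.46 and -0.46 (permutation p = 0.0401, 0.00991 and 0.0106, adjusted 0.192, 0.0876 and 0.0876). Without libraries 9 and 21 these r were 0.10, 0.13 and -0.28, so the relations rest on those mice. The summed neuron markers had r of -0.68 to Slc3a2 (permutation p = 1e-04, adjusted 0.00495, rho -0.46, and -0.39 without libraries 9 and 21) and of 0.52 to Slc7a8 (permutation p = 0.00303, adjusted 0.0238, rho 0.45). The adjusted permutation p of each rho was 0.0876. The summed hippocampal neuron markers had r of -0.52 to Slc3a2 (permutation p = 0.00376, adjusted 0.0258). Their rho to Slc3a2 was -0.55 (permutation p = 0.00171, adjusted 0.0423), and r was -0.45 without libraries 9 and 20.

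Calls among the markers of the other cell types were uneven, and some lists had large median differences. Of all genes, 8.34% were called for HD against Ctr and 4.19% for Se_HD against Se_Ctr. The shares were 4.94% for Se_HD against Se_LD and 9.09% for the pooled high dose. The 14 endothelial markers, the cells in which LAT1 is best known, were all detected and summed to 3544 to 4027 in Ctr and 3207 to 4209 in HD mice, with 0 of 14 called for HD against Ctr and 2 of 14 called higher for Se_HD against Se_Ctr (median log2 fold change 0.07). Their sum had r of 0.28 to Slc7a5 (permutation p = 0.129, rho 0.38) and of -0.54 to Slc7a8 (permutation p = 0.00207, adjusted 0.0190, rho -0.54, -0.55 without libraries 9 and 30). To Slc3a2 its r was 0.45 (permutation p = 0.0124, adjusted 0.0759), and 0.36 without the same libraries. The rho to Slc3a2 was 0.49 (permutation p = 0.00643, adjusted 0.0876). Slc43a2 went with the summed markers of oligodendrocytes, with r of 0.62 (permutation p = 0.00018, adjusted 0.00495), rho of 0.54 and 0.66 without libraries 18 and 21. The 7 oligodendrocyte markers summed to 33190.3 to 56770 in Se_LD and 32652 to 60290 in Se_HD mice, so these groups overlapped. Their median log2 fold change was -0.16 for Se_HD against Se_LD and -0.14 for HD against Ctr. It was 0.06 for Se_HD against Se_Ctr and -0.02 for the pooled high dose, with 0 of 7 called in each comparison. The 4 thalamus markers had a median log2 fold change of -0.73 for Se_HD against Se_LD, with 2 of 4 called lower. It was 0.13 for HD against Ctr, with 1 called higher, -0.07 for Se_HD against Se_Ctr and 0.02 for the pooled high dose. Slc43a2 had r of 0.41 to the summed thalamus markers (permutation p = 0.0273, adjusted 0.136, rho 0.22). Without libraries 11 and 29, the farthest from the median of that sum, r was 0.11. Those libraries also had the highest Slc43a2 of the Se_LD mice (757 and 728). The 8 choroid plexus markers summed to 277 to 37757 in Se_LD and 9357 to 34695 in Se_HD mice. The choroid plexus median was 1.78 for Se_HD against Se_LD with 0 of 8 called, and 1.48 for HD against Ctr with 1 of 8 called. For HD against Ctr the 5 erythrocyte markers had a median of -0.52 with 0 called and the 5 striatum markers 0.36 with 1 called higher. The part of these marker lists in the Slc43a2 result was not tested.

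The wider amino acid transport system was described from 4 further gene lists, none of whose genes passed adjustment in any comparison. Of the 4 other light chains that pair with Slc3a2, 0 were called for HD against Ctr (median log2 fold change 0.21, against 0.01 for all genes, of which 8.34% were called). For HD against LD and for Se_HD against Se_LD 1 of 4 was called in each, beside 6.96% and 4.94% of all genes. For Se_HD against Se_Ctr and for the pooled high dose 1 of 4 was called, beside 4.19% and 9.09% of all genes. In both of the latter this was Slc7a11, the cystine and glutamate exchanger that supplies cysteine for glutathione, at 479 ± 117 in Ctr, 600 ± 149 in HD, 377 ± 27.9 in Se_Ctr and 523 ± 153 in Se_HD mice (SD, n = 5). Its pooled log2 fold change was 0.37 (SE 0.13, limma unadjusted p = 0.00900, adjusted p = 0.315).

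Of 11 other genes, 10 neutral or aromatic amino acid transporters and Slc43a3, a family relative of LAT3 and LAT4 that encodes a nucleobase carrier, 3 were called for HD against Ctr, all higher, beside 8.34% of all genes, with a median log2 fold change of 0.12 over the list. Slc43a3 had 7.17 ± 4.92 in Ctr and 29.6 ± 26.1 in HD mice (log2 fold change 1.78, SE 0.47, limma unadjusted p = 0.00104, adjusted p = 0.154). Slc1a4, a carrier of serine and other small neutral amino acids, had 493 ± 23.4 in Ctr and 729 ± 343 in HD mice (0.46, SE 0.18, adjusted p = 0.451). Slc38a5, a glutamine carrier, had means of 38.5 and 59.4 (0.59, SE 0.25, adjusted p = 0.506). The spread of each was larger in HD than in Ctr mice. For the pooled high dose 3 of the 11 were called, beside 9.09% of all genes, which were Slc43a3 (1.07), Slc1a4 (0.23) and Slc38a2 (0.18). In the selenium diet Slc1a4 was not higher at the high dose, with 533 ± 36.9 in Se_Ctr and 532 ± 30.9 in Se_HD mice. Slc43a3 had 11.5 ± 3.00 and 15.6 ± 5.74 there.

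In the selenium diet 1 of these 11 was called for Se_HD against Se_Ctr, beside 4.19% of all genes. It was Slc38a2, a carrier of neutral amino acids that cells induce when amino acids are short, at 1315 ± 70.7 in Se_Ctr and 1607 ± 203 in Se_HD mice (log2 fold change 0.28, SE 0.08, limma unadjusted p = 0.00173, adjusted p = 1.00). For Se_HD against HD 2 of the 11 were called lower and 0 higher, beside 8.38% of all genes. For the HD effect with against without selenium 3 of the 11 were called lower and 0 higher, beside 4.77%. Of the 4 cationic transporters 1 was called for HD against Ctr, beside 8.34% of all genes. This was Slc7a2, an arginine and lysine carrier, at 410 ± 75.0 in Ctr and 508 ± 82.6 in HD mice (log2 fold change 0.31, SE 0.14, adjusted p = 0.563). For Se_HD against HD and for selenium pooled over the doses 1 of the 4 was called lower in each, beside 8.38% and 6.62% of all genes.

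The 13 amino acid response genes, targets or regulators of the ATF4 pathway that also acts on Slc7a5 and Slc3a2 when amino acids are short, had 1 gene called for HD against Ctr, a share no higher than the 8.34% of all genes. Atf5, a transcription factor of this response, had 213 ± 67.5 in Ctr and 300 ± 78.4 in HD mice (log2 fold change 0.51, SE 0.20, limma adjusted p = 0.466). The list had a median log2 fold change of 0.17 for HD against Ctr, with 12 of 13 above 0, and of -0.03 for Se_HD against Se_Ctr, with 6 of 13 above 0. For the pooled high dose 0 of 13 were called, beside the 9.09% of all genes. For Se_HD against HD 2 of 13 were called lower, beside 8.38% of all genes, and 0 of 13 were above 0. For the HD effect with against without selenium 1 of 13 was called lower, beside 4.77%, and for selenium pooled over the doses 1, beside 6.62%.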

How the data were processed

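Hippocampus RNA of 30 mice was made into stranded libraries and read from 1 end, and the authors trimmed the reads (Trim Galore 0.4.2), mapped them with HISAT2 to NCBIM37 and counted them per gene with featureCounts. The deposited values are a signal that the authors obtained by dividing read counts by DESeq2 size factors. Every value was a whole number of reads times 1 factor per library (tolerance 0.01 reads), so reads were recovered. Libraries held 5768208 to 11510521 reads on genes (median 9351470). Groups came from the sample labels. The members, gene lists and tests were chosen with earlier results of these data known.

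A moderated linear model (limma 3.58.1 with trend, R 4.3.3) was fitted to log2 of normalized counts after adding 1. Genes summing to 10 or more entered, which left 20031 for the 15 libraries without selenium, 19679 for the 15 with it and 21383 for contrasts across the diets over all 30. The Benjamini-Hochberg adjustment ran over all genes of a fit. Permutation tests compared 5 mice with 5 by full enumeration, and correlations used 100000 permutations. All 5 members are named, and from each gene list up to 5 genes called in HD against Ctr, Se_HD against Se_Ctr or the pooled high dose, lowest p first, if their mean normalized count was 10 or more. Of 7 neuron markers, 6 were matched (not Map2). The alternatives changed the pseudocount (0.1, 10), the filter (mean 10, none), the scaling (quantile, recomputed size factors), the trend, the libraries in the fit, the block of library numbers and the tool (edgeR 4.0.16, or DESeq2 1.42.0, both run with recovered reads), and left out each library. The fits were tested on simulated data.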

Additional observations from a re-analysis of the deposited data

Results flagged for a closer look

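The 5 genes in 6 groups gave 30 sets of 5 values, and in 4 of them 1 mouse stood far from the others, with a gap to its nearest neighbour above 0.71 of the whole range of the set. Chance alone gives about 1 in 20 such sets. For Slc43a2 in HD mice, library 21 was the lowest (437 normalized counts, gap 0.788 of the range), and for Slc7a5 in Ctr mice library 1 was the highest (333, gap 0.724). For Slc43a1, library 19 was the highest of the Ctr mice (8.50, gap 0.85) and library 17 the highest of the Se_LD mice (3.35, gap 0.778), both on 9 reads or fewer.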

How the results depend on the processing

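Under every alternative run, 0 of the 5 members passed adjustment in any comparison, with a lowest adjusted p of 0.162 under DESeq2 and 0.275 under edgeR. Slc43a2 kept its sign and an unadjusted p under 0.05 for Se_HD against Se_LD and for the pooled high dose under all alternatives. The count of members called moved from 0 to 1 for HD against Ctr with a pseudocount of 0.1 (1, Slc43a1) and with a pseudocount of 10 or all 30 libraries in 1 fit (1 each, Slc43a2), and for Se_Ctr against Ctr with a pseudocount of 0.1 (1). For the pooled high dose it moved from 2 to 1, by the loss of Slc3a2, with quantile normalization (1) or without the trend (1). Leaving out 1 library gave 0 to 2 called for HD against Ctr, 0 to 1 for HD against LD, 0 to 1 for Se_LD against Se_Ctr, 0 to 2 for Se_HD against Se_Ctr, 0 to 1 for Se_Ctr against Ctr, 0 to 1 for the HD effect and 0 to 1 for the LD effect between the diets, 1 to 2 for the pooled high dose and 1 to 2 for the F test. Outside the pooled comparison, calls appeared without library 19 (Ctr) in 5 comparisons (Slc43a1 for HD against Ctr), and without library 15 or 27 for HD against Ctr and 15 for HD against LD. Calls for HD against LD also appeared without library 26, for Se_LD against Se_Ctr without library 28 and for Se_HD against Se_Ctr without library 22 or 24. The cause was not tested. Slc7a8 for HD against Ctr turned to log2 fold changes of -0.01, -0.02 and -0.08 without 1 library, Slc7a5 for Se_HD against Se_LD to -0.09 without library 11, and Slc43a1, whose few reads leave its sign unfixed, for Se_HD against Se_Ctr to 0.09, 0.17 and 0.08 without 1 library (range -0.23 to 0.17) and to 0 with a pseudocount of 0.1. With sets of 6 library numbers as a replicate block, 1 member was called for the pooled high dose (Slc3a2 had 0.14 and a limma p of 0.0621), and no other call of the members changed. The labels do not say that these sets pair the mice, and of 75 pairs of libraries in the same set 25.3% had deviations correlated above 0.1 (median -0.02). Genes passing in HD against Ctr numbered 26 by limma, 45 by edgeR and 196 by DESeq2, with 200 when all 30 libraries were in 1 fit, 17 and 11 with pseudocounts of 0.1 and 10, and 0 by limma without the trend (1595 at an unadjusted p under 0.05) or with the 2 groups alone (1498). Depth limits Slc43a1, with 68 reads in all.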
